A study of Marchantia polymorpha and Arabidopsis thaliana and Oryza sativa Japonica Group with 116 samples.

Results

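All 9 libraries labelled xlg1-2 and all 9 labelled gpb1-2 in the Marchantia G-protein count table were compared, 18 of the 116 libraries of the series. They were chosen by label alone, and the genotype difference was tested with sampling time as a covariate. The series sequenced RNA of Arabidopsis, rice and the liverwort Marchantia polymorpha with altered G-protein subunits under salt. Gemmalings, the young plants that grow from the vegetative propagules called gemmae, were 7 days old and had been grown in diluted liquid B5 medium in continuous light. Each genotype gave 3 libraries at 0 h, 3 at 2 h and 3 at 24 h after the start of 100 mM NaCl. There was no mock-treated group, so salt cannot be told apart from elapsed time or handling. The other 18 libraries of the table, 9 from the wild type Tak-1, a male line, and 9 from gpa1-2, named for the canonical Gα, were used only to show where the mutants stood. The labels give neither how the alleles were made nor whether each mutant line was 1 clone. The series calls its replicates biological, but no label ties a library to a separate culture, so p-values measure only the spread between these libraries, which may be technical.

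Heterotrimeric G proteins pass signals inward from the plasma membrane through a GTP-binding Gα subunit and a dimer of Gβ and Gγ. The name XLG stands for the extra-large Gα proteins of plants, which carry a long additional region ahead of a Gα-like part, and GPB for the Gβ subunit. In Arabidopsis, extra-large Gα proteins bind Gβ, and mutants of either are known for altered salt tolerance and defence.

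The table gives Mapoly locus identifiers, and the files do not pair these with gene names. No identifier of the table was found in the Marchantia gene table at hand, whose assembly is MpTak2_v7.1, so loci are reported without names or functions, at most 2 higher and 2 lower per comparison. Mutated genes and tissue markers were not checked for the same reason. An identifier such as Mapoly0012s0068 gives the only position known here, scaffold 12 and locus number 68. Total counts ran from 9.5 to 21.3 M per library (median 10.7 M). Replicate 3 was deeper, at 19 to 21.3 M, than replicates 1 and 2, at 9.5 to 11.3 M, in both genotypes. The 18 Tak-1 and gpa1-2 libraries ran from 7.48 to 11.5 M, replicate 3 included, so they differ from the compared libraries in this. Of 16743 loci, 10068 passed a filter on low counts and were tested, and levels are given as CPM, counts scaled to a common library total after TMM normalization.

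Time separated the libraries more than genotype did. The nearest library by log2 CPM was of the same time for 18 of 18 libraries and of the same genotype and time for 13 of 18. The genotypes parted on the third principal component, which held 11.5% of the variance. There the 9 gpb1-2 libraries lay between -25.2 and -3, and xlg1-2 replicates 2 and 3 lay between 7.3 and 34.3. The 3 libraries of xlg1-2 replicate 1 lay at -8.3 to -1.1, each above the gpb1-2 libraries of its time and below the other 2 of its own label. On this component these 3 libraries stand apart from the other 6 of their label, so counts are also given without them. Values of named loci whose fold moved by over 1.5 times are given in the same way. By log2 CPM, however, xlg1-2 0 h replicate 1 was nearest to replicate 3 of its own label and time. The 3 libraries were left out for lying nearest to gpb1-2 on the component that parts the genotypes. That choice can by itself widen the difference and raise the number of calls, so higher counts without them are no separate support. What sets them apart was not tested.

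**Figure D1:**
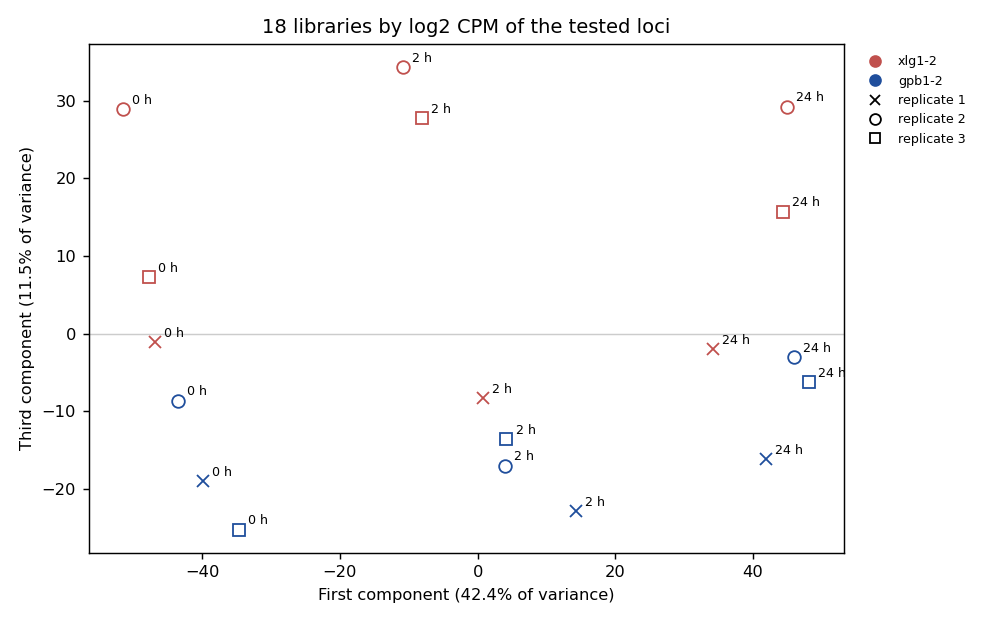
First principal component (x axis, 42.4% of variance) against the third (y axis, 11.5%) of log2 CPM in 18 libraries, coloured by genotype, with the symbol giving the replicate and the text the time. Libraries spread along the x axis by time and along the y axis by genotype, and the 3 crosses of xlg1-2 replicate 1 sit between -8.3 and -1.1 on the y axis, below the other 6 xlg1-2 libraries.

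Over all times, 948 of 10068 tested loci (9.42%) differed between the genotypes, with 468 higher and 480 lower in xlg1-2 than in gpb1-2 (edgeR quasi-likelihood F-test, adjusted p under 0.05). That test takes the 9 libraries of a genotype as independent. The shift of xlg1-2 replicate 1 on the third component recurred at all 3 times, so they may not be. The p-values over all times may then be too small. Most differences were small. The median was 0.42 on the log2 scale among loci higher in xlg1-2 and -0.48 among those lower, and 73 and 103 loci reached a 2-fold difference. In bulk RNA, fewer cells of a type and less RNA per cell cannot be told apart. The difference had the same sign at 0, 2 and 24 h for 936 of the 948 loci, against 4766 of all 10068 (47.3%), although the call itself drew on all 3 times. In 206 loci, 2.05% of those tested, the libraries of the genotypes did not overlap at any time. All 206 were among those called, 82 higher and 124 lower in xlg1-2. Overlap and call draw on the same libraries, so this match is no separate support. With the 3 libraries of xlg1-2 replicate 1 left out, 574 of 10177 tested loci (5.64%) did not overlap, in a comparison of fewer libraries, and 550 of them were called. Those of the 10177 that are not among the 10068 were not measured for overlap and count here as overlapping.

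Replicate numbers paired the libraries, and with the number as a block 1698 loci were called (16.9%, 950 higher and 748 lower in xlg1-2), which included all 948. The block is shared by both genotypes, so it does not take up a shift of replicate 1 in xlg1-2 alone. Without the 3 libraries of xlg1-2 replicate 1 there were 1171 (524 higher, 647 lower), and without replicate 1 of both genotypes 995 (430 and 565). Leaving out the single library xlg1-2 2 h replicate 2 gave the lowest count, 628.

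**Figure D2:**
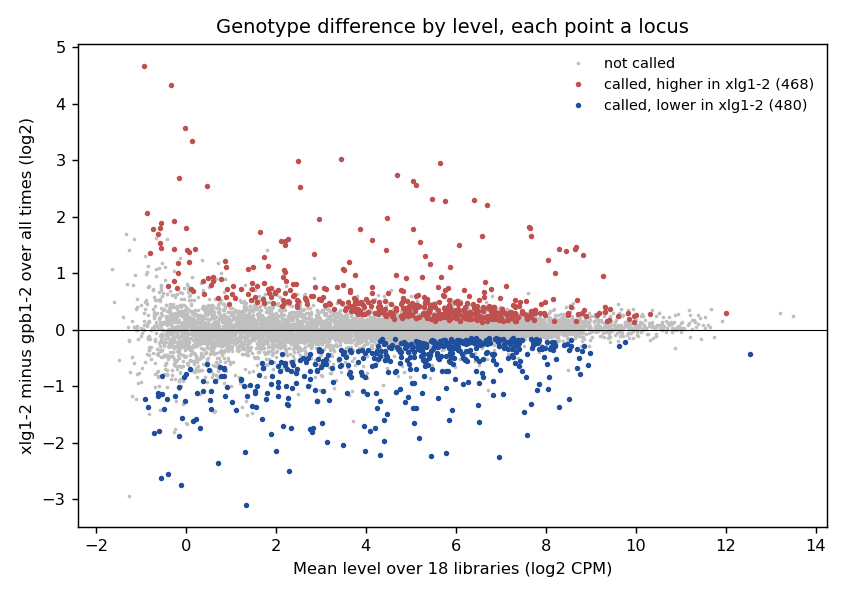
Mean level over the 18 libraries (x axis, log2 CPM) against the difference between xlg1-2 and gpb1-2 over all times (y axis, log2), each point 1 of 10068 tested loci. The 468 loci called higher in xlg1-2 and the 480 called lower lie on both sides of 0 across the range of levels, with medians of 0.42 and -0.48.

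Loci called from replicates 2 and 3 mostly kept their direction in replicate 1, with smaller median differences. Of the 995 loci called from replicates 2 and 3 alone, 981 were also among the 10068, 421 of them higher and 560 lower in xlg1-2. In replicate 1, whose libraries had no part in those calls, 390 of the 421 (92.6%) and 519 of the 560 (92.7%) had the same sign, against 48.2% and 51.8% of all tested loci. Their median fitted differences were 0.48 and -0.65 in replicates 2 and 3. In replicate 1 the medians of the mean difference in log2 CPM were 0.25 and -0.22. These are 2 unlike measures, and the fitted values come from the fit that chose the loci, which tends to make them larger. Calls from replicates 1 and 3 among the 10068, 74 higher and 42 lower, all had the same sign in replicate 2, as did the 57 higher and 25 lower loci called from replicates 1 and 2 when measured in replicate 3.

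Loci are named where they had the largest called differences among loci with at least 10 CPM in the higher group and libraries that did not overlap at the times tested, so the lack of overlap at a named locus was set by the choice and is no result. Larger differences at loci outside this rule are not named. Mapoly0112s0041 had the largest difference over all times among loci higher in xlg1-2 that met it. At 0 h it measured 14.1, 20.1 and 16.7 CPM in the 3 xlg1-2 libraries and 5.04, 4.25 and 3.24 in the 3 of gpb1-2. At 24 h the values were 30.5, 88.5 and 73.6 CPM in xlg1-2 and 3.19, 2.16 and 2.76 in gpb1-2. Among the xlg1-2 libraries replicate 1 was lowest at each time. The fitted difference was 3.02 on the log2 scale (SE 0.35, adjusted p = 6.8e-05), or 8.14-fold. Tak-1 ran from 20.7 to 111 CPM over its 9 libraries (median 63.2) and gpa1-2 from 23.6 to 158 (median 78.9), so the gpb1-2 range of 2.16 to 6.67 CPM lay below those of the other 3 genotypes.

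Mapoly0012s0068 followed, at 84.7, 79.4 and 107 CPM in xlg1-2 and 21.3, 10.6 and 32.9 in gpb1-2 at 0 h. At 24 h it was at 8.03, 8.04 and 5.97 CPM in xlg1-2, and at 0.177, 0 and 0.0986 in gpb1-2. The locus fell against 0 h in both genotypes. Over all times the difference was 3.00 (log2, SE 0.38, adjusted p = 1.3e-04). Tak-1 (3.74 to 166 CPM) and gpa1-2 (6.3 to 143 CPM) covered nearly the same range as xlg1-2 (4 to 107 CPM).

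Among loci lower in xlg1-2 that met the same rule, Mapoly0034s0076 had the largest difference. Its levels at 0 h were 1.32, 0.12 and 0.806 CPM in xlg1-2 and 9.09, 3.93 and 10.2 in gpb1-2. By 24 h they were 23.5, 1.82 and 4.39 CPM in xlg1-2 and 45, 27.7 and 25.5 in gpb1-2. At 24 h the xlg1-2 replicate 1 library, at 23.5 CPM, came close to the lowest gpb1-2 library. The locus was lower in xlg1-2 by 5.62-fold over all times (log2 -2.49, SE 0.45, adjusted p = 0.0024), and the log2 difference was -3.65 without the 3 libraries of xlg1-2 replicate 1. At no single time was it called (adjusted p = 0.16, 0.082 and 0.27 at 0, 2 and 24 h), so the call rests on the test over all times. In Tak-1 and gpa1-2 the highest of 9 libraries reached 2.77 and 1.37 CPM.

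Mapoly0041s0051 measured 109, 4.81 and 45.5 CPM in xlg1-2 and 230, 240 and 474 in gpb1-2 at 0 h. In xlg1-2 the replicate 1 library was the highest at each time, at 109, 114 and 232 CPM. The difference over all times was -2.24 (log2, SE 0.47, adjusted p = 0.0059), and -3.23 (adjusted p = 0.00024) without the 3 libraries of xlg1-2 replicate 1. This locus too was not called at any single time (adjusted p = 0.27, 0.12 and 0.49 at 0, 2 and 24 h). By replicate number, the mean difference in log2 CPM was -0.92, -4.24 and -3.26. Tak-1 and gpa1-2 had medians of 18.2 and 12.8 CPM, below that of xlg1-2 (90.2 CPM) and that of gpb1-2 (332 CPM).

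**Figure D3:**
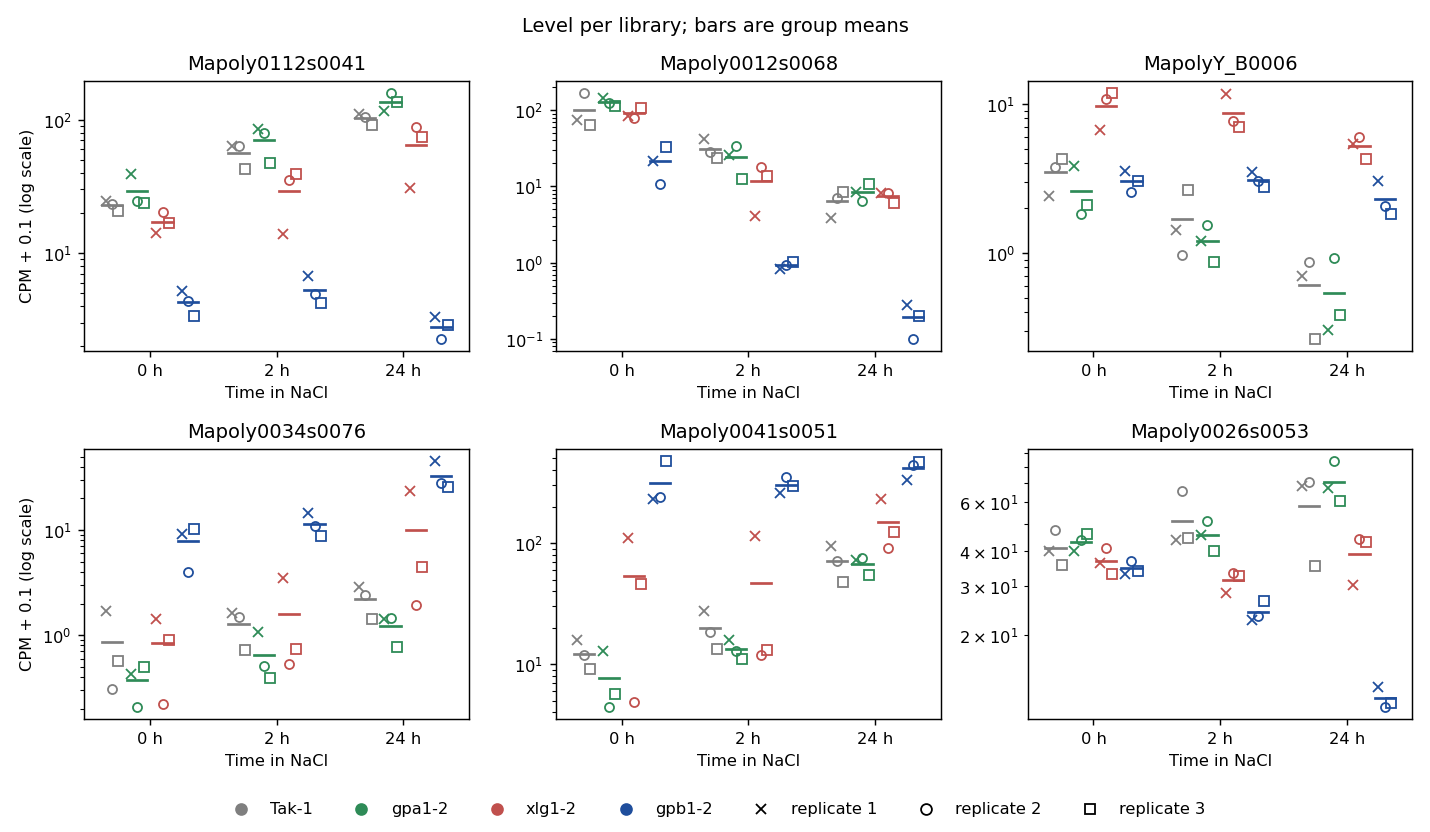
Level of 6 loci in each library of Tak-1, gpa1-2, xlg1-2 and gpb1-2 (y axis, CPM + 0.1 on a log scale) by time in NaCl (x axis), with bars for group means of 3 libraries. As the naming rule requires, the gpb1-2 libraries are below the xlg1-2 libraries of their time at Mapoly0112s0041 and Mapoly0012s0068 and above them at Mapoly0034s0076 and Mapoly0041s0051. At MapolyY_B0006 xlg1-2 is the highest genotype, and at Mapoly0026s0053 the genotypes part most at 24 h.

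Across the called loci, gpb1-2 was more often the genotype farther from Tak-1, most of all among loci lower in xlg1-2. Mean log2 CPM in Tak-1 was nearer to xlg1-2 than to gpb1-2 for 389 of the 480 loci lower in xlg1-2 (81%) and for 252 of the 468 higher (53.8%), against 47.7% of all tested loci. For the lower loci the median difference from Tak-1 was -0.01 in xlg1-2 and 0.44 in gpb1-2. The higher loci had medians of 0.16 in xlg1-2 and -0.21 in gpb1-2. Levels in gpa1-2 were nearer to xlg1-2 for 85.4% of the lower and 75.9% of the higher loci, against 56.1% of all tested. With the replicate block, the shares nearer to xlg1-2 in Tak-1 were 74.1% of 748 lower and 42.6% of 950 higher loci, and most of the higher loci were then nearer to gpb1-2. Without the 3 libraries of xlg1-2 replicate 1 they were 79% of 643 lower and 57.4% of 514 higher loci, counted over those of the 647 and 524 called loci that are among the 10068. These are descriptions with no test, and what sets a locus between genotypes was not tested.

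At 0 h, before salt, 31 loci were called (0.308%), 12 higher and 19 lower in xlg1-2. Mapoly0012s0068 and Mapoly0112s0041, described above, were the named loci higher in xlg1-2, by 2.05 (SE 0.38) and 2.04 (SE 0.41) on the log2 scale. Mapoly0048s0002 was lower, at 32.8, 18.7 and 27.4 CPM in xlg1-2 and 108, 145 and 167 in gpb1-2 (log2 -2.41, SE 0.47, adjusted p = 0.046). Mapoly0274s0001 was at 5, 2.17 and 2.9 CPM in xlg1-2 against 8.79, 15 and 12.8 in gpb1-2, a log2 difference of -1.86 (SE 0.37). All 4 calls at 0 h were near the threshold, and each was lost in 14 to 16 of 26 alternatives, with adjusted p up to 0.33. The count rose to 112 with the replicate block (1.11%, 28 higher and 84 lower) and to 252 without xlg1-2 replicate 1 (46 higher, 206 lower), and it ranged from 1, without gpb1-2 0 h replicate 3, to 159, without xlg1-2 2 h replicate 1.

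At 2 h of NaCl, 142 loci were called (1.41%), 88 higher and 54 lower in xlg1-2. The named higher loci were both on scaffold 12. Mapoly0012s0068 was at 4, 17.8 and 13.6 CPM in xlg1-2 and at 0.731, 0.824 and 0.925 in gpb1-2 (log2 3.81, SE 0.53, adjusted p = 0.0024). Mapoly0012s0062 was at 17.4, 55.3 and 56.9 CPM in xlg1-2 and at 5.49, 5.77 and 7.54 in gpb1-2 (log2 2.78, SE 0.39, adjusted p = 0.0024). At both loci replicate 1 was the lowest xlg1-2 library.

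Among loci lower at 2 h, Mapoly0177s0005 measured 2.5, 0.325 and 0.147 CPM in xlg1-2 and 9.33, 12.2 and 11.3 in gpb1-2 (log2 -3.64, SE 0.74, adjusted p = 0.027). Mapoly0120s0039 measured 15, 4.44 and 4.66 CPM in xlg1-2 and 44.3, 42.7 and 30.3 in gpb1-2 (log2 -2.31, SE 0.53, adjusted p = 0.041). Replicate 1 was again the xlg1-2 library nearest to gpb1-2. Without xlg1-2 2 h replicate 1 alone the difference at Mapoly0177s0005 was -5.66, and its call was lost without any 1 gpb1-2 library of 2 h or without xlg1-2 2 h replicate 2 or 3 (adjusted p up to 0.15). The difference at Mapoly0120s0039 was -3.07 without the 3 libraries of xlg1-2 replicate 1, and its call was lost in 11 of 26 alternatives (adjusted p up to 0.22). The balance of directions at 2 h depended on that replicate: without its 3 xlg1-2 libraries 655 loci were called, 223 higher and 432 lower. The replicate block gave 593 (5.89%, 327 and 266). Leaving out 1 library at a time gave 14 calls without xlg1-2 2 h replicate 3 and 574 without xlg1-2 2 h replicate 1.

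By 24 h, 184 loci were called (1.83%), 139 higher and 45 lower in xlg1-2, and 99 of the higher against 12 of the lower reached 2-fold. The named higher loci, Mapoly0001s0210 and Mapoly0001s0211, have consecutive numbers on scaffold 1. Mapoly0001s0210 was at 3.66, 26.3 and 16.5 CPM in xlg1-2 and at 0.266, 0 and 0.247 in gpb1-2 (log2 6.28, SE 0.86, adjusted p = 4.9e-04). Mapoly0001s0211 was at 9.54, 30.2 and 22.4 CPM in xlg1-2 and at 0.798, 0.515 and 0.296 in gpb1-2 (log2 5.35, SE 0.68, adjusted p = 2.8e-04). Means at 24 h were higher still in Tak-1, at 39 CPM for Mapoly0001s0210 and 47.7 for Mapoly0001s0211. In gpa1-2 they were 52.2 and 60.8 CPM, against 15.5 and 20.7 in xlg1-2. At 2 h neither locus was called between xlg1-2 and gpb1-2, with differences of -0.25 (SE 1.09) and -0.24 (SE 0.83). Whether such neighbours are copies that share reads is not known here, so they are not counted as independent.

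On the lower side at 24 h, Mapoly1812s0001 measured 253, 182 and 189 CPM in xlg1-2 and 492, 682 and 644 in gpb1-2 (log2 -1.54, SE 0.26, adjusted p = 0.003). Its median over 9 libraries was 197 CPM in xlg1-2, 208 in Tak-1 and 217 in gpa1-2, against 644 in gpb1-2. Mapoly0049s0055 measured 22.5, 20.7 and 24.2 CPM in xlg1-2 and 34, 91.4 and 90 in gpb1-2 (log2 -1.67, SE 0.38, adjusted p = 0.029), a call lost without any 1 xlg1-2 library of 24 h or without gpb1-2 24 h replicate 2 or 3 (adjusted p up to 0.16). The count at 24 h was 357 with the replicate block (3.55%, 242 higher and 115 lower) and 453 without xlg1-2 replicate 1 (278 and 175), and it ran from 87, without gpb1-2 24 h replicate 3, to 286, without xlg1-2 24 h replicate 1.

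Loci called at 1 time mostly had the same direction at the others, although fewer were called there. The values at the other times come from other libraries, but the spread behind each call was estimated from the libraries of all times. In the fit of all 18 libraries, 47.4% to 52.6% of all tested loci had the sign in question at the other time. All 12 loci higher at 0 h had the same sign at 2 h and at 24 h, and 10 were also called at each. Of the 19 lower at 0 h, all 19 had the same sign at 2 h and 17 at 24 h, but 6 and 2 were called there, and the median difference was -1.26 at 0 h, -0.72 at 2 h and -0.40 at 24 h. Of the 139 loci higher at 24 h, 113 (81.3%) had the same sign at 0 h and also 113 at 2 h, where 50.7% and 50.2% of all tested loci had that sign. They were called at 0 h in 10 cases and at 2 h in 39, and their median difference was 1.60 at 24 h, 0.39 at 0 h and 0.56 at 2 h. Of the 88 loci higher at 2 h, 83 had the same sign at 0 h and 80 at 24 h, with 10 and 39 called. Of the 54 lower at 2 h, 53 had the same sign at 0 h and 46 at 24 h, with 6 and 5 called. The 45 lower at 24 h had the same sign in 39 cases at 0 h and in 37 at 2 h, with 2 and 5 called. With xlg1-2 replicate 1 left out, 197 of 278 loci higher at 24 h (70.9%) had the same sign at 0 h, and 206 of 206 lower at 0 h had it at 2 h.

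The test of whether the genotypes changed differently with time called 3 loci (0.0298%), all with a response at 24 h that was higher in xlg1-2 than in gpb1-2. In simulated data this test recovered 13 of 67 loci given a 1.5-fold difference at 24 h and 53 of 67 given a 2-fold one. The small count therefore does not show that the responses were equal. The changed loci of the simulation had a mean of at least 10 CPM. Its libraries were drawn independently, with no pairing by replicate and no shift of xlg1-2 replicate 1, so recovery in the real data may differ. Mapoly0026s0053 went from 36.2, 40.9 and 33 CPM at 0 h to 30.1, 44.1 and 42.9 at 24 h in xlg1-2. In gpb1-2 it went from 33.1, 36.9 and 33.8 to 13, 11 and 11.4 CPM. The genotypes overlapped at 0 h and were apart at 24 h, and the difference of the 24 h responses was 1.65 (log2, SE 0.20, adjusted p = 0.0069 over both times). In Tak-1 its mean was 41.1 ± 5.97 CPM (SD, n = 3) at 0 h and 58 ± 19.7 at 24 h.

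Mapoly0095s0043 stood at 0.566, 0.842 and 0.538 CPM at 0 h, 15.5, 11.7 and 11.1 at 2 h and 5.08, 5.17 and 6.16 at 24 h in xlg1-2. In gpb1-2 the values were 0.494, 0.932 and 1.13, then 16.6, 15 and 16, then 1.33, 1.85 and 1.28 CPM. Both genotypes rose at 2 h, and at 24 h each xlg1-2 library was above each of gpb1-2. The difference of 24 h responses was 2.43 (SE 0.40), with adjusted p = 0.011 over both times and 0.056 for the 24 h term alone. The third locus, Mapoly0033s0062, was named after its values were seen because the count is small. It was at 38.1, 57.3 and 48.5 CPM at 24 h in xlg1-2 and at 14, 12.3 and 8.43 in gpb1-2. The difference was 2.33 (SE 0.45), with adjusted p = 0.041 over both times and 0.12 for the 24 h term alone. The call over both times was lost in 14 of 26 alternatives. Mean levels of this locus at 24 h were 142 CPM in Tak-1 and 117 in gpa1-2, above that of xlg1-2.

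With the replicate block 18 loci were called for this difference (0.179%, 17 of them higher in xlg1-2), and DESeq2 called 89. Without the 3 libraries of xlg1-2 replicate 1 the count was 152, 132 of them in that direction, and the 3 loci above had differences of 1.80, 2.45 and 2.49. Without gpb1-2 24 h replicate 3 the calls of all 3 loci were lost and edgeR called 0, with 392 loci at an unadjusted p under 0.05, and without xlg1-2 2 h replicate 1 it called 81. The call of Mapoly0095s0043 was also lost without xlg1-2 24 h replicate 3 (adjusted p up to 0.13).

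Both genotypes changed broadly with time in NaCl, and mostly in the same loci. In xlg1-2, 3175 loci (31.5%) were called at 2 h, 1665 up and 1510 down, and 5101 (50.7%) at 24 h, 2552 up and 2549 down. In gpb1-2, 3021 (30%) were called at 2 h, 1534 up and 1487 down, and 4894 (48.6%) at 24 h, 2349 up and 2545 down. At 2 h, 2340 loci were called in both genotypes, 73.7% of those of xlg1-2 and 77.5% of those of gpb1-2, all in the same direction. At 24 h the 4199 shared loci were 82.3% and 85.8% of the 2 lists, and 8 of them moved in opposite directions. Across the 10068 loci, which are not independent replicates, the responses of the genotypes had a Pearson correlation of 0.90 at 2 h and 0.89 at 24 h, each genotype having its own libraries. With xlg1-2 replicate 1 left out, 2346 loci (23.1%) were called in xlg1-2 at 2 h and 4518 (44.4%) at 24 h. The 1951 loci then shared at 2 h were 83.2% of the xlg1-2 list and 60.1% of the gpb1-2 list, and the 3897 shared at 24 h were 86.3% and 76.4%, 27 of them in opposite directions.

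**Figure D4:**
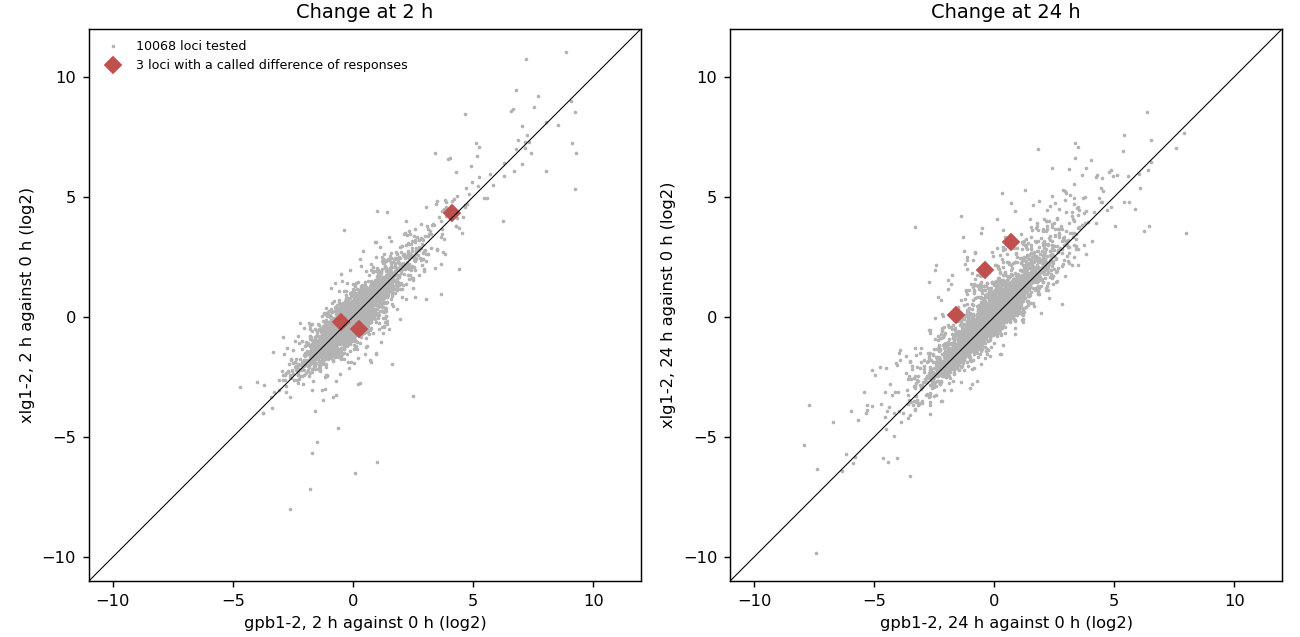
Change against 0 h in gpb1-2 (x axis, log2) and in xlg1-2 (y axis, log2) at 2 h and at 24 h of NaCl, each point 1 of 10068 tested loci, with the line of equal change. Points lie along the line (Pearson correlation 0.90 and 0.89), and the 3 loci with a called difference of responses sit above it at 24 h.

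The largest rises of xlg1-2 at 2 h that met the naming rule started from almost nothing. Mapoly0097s0034 was at 0, 0 and 0.0538 CPM at 0 h and at 31.4, 121 and 70.2 at 2 h, 1 count against 2861 over the groups, a ratio of 2710 (exact 95% counting interval 486 to 107000). Mapoly1171s0001 had 0 counts at 0 h and 5.2, 23.9 and 17.6 CPM at 2 h, at least 200-fold higher against a floor of 3 counts over the group. In gpb1-2 the same loci reached 52.2, 58.1 and 45.1 CPM and 21.6, 16.9 and 23 CPM at 2 h, and neither was called between genotypes at 2 h. The named falls at 2 h in xlg1-2 were those of Mapoly0004s0259, from 11.9, 13.7 and 14.4 to 0.6, 0.758 and 0.982 CPM (log2 -4.01, SE 0.25, adjusted p = 2.1e-08), and of Mapoly0037s0118, from 24.8, 17.9 and 23.8 to 1.1, 1.84 and 3.14 CPM (log2 -3.35, SE 0.34). At 24 h Mapoly0004s0259 was back at 7.67, 11.6 and 10.3 CPM in xlg1-2. The 2 h changes in gpb1-2 were -3.75 (log2, SE 0.25) at Mapoly0004s0259 and -3.42 (SE 0.35) at Mapoly0037s0118.

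Gemmalings of gpb1-2 had their named 2 h rises at Mapoly0035s0082, from 0.0988, 0 and 0 to 25.4, 19.9 and 19.9 CPM, and at Mapoly0054s0040, from 0.0988, 0 and 0.103 to 55.2, 48.8 and 49.7 CPM. With 1 and 3 counts at 0 h, the ratios were 835 (exact 95% counting interval 149 to 33000) and 664 (227 to 3220). Both loci also rose at 2 h in xlg1-2, by 6.81 (SE 0.70) and 8.55 (SE 0.82) on the log2 scale. They were back under 4 CPM in gpb1-2 at 24 h. The named falls of gpb1-2 at 2 h were those of Mapoly0012s0068 (log2 -4.68, SE 0.53) and Mapoly0012s0062 (log2 -4.00, SE 0.39). In xlg1-2 the same loci fell by 2.92 (SE 0.40) and 2.70 (SE 0.35) on the log2 scale, and the difference of responses was not called at either locus (adjusted p = 0.29 and 0.15).

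By 24 h, Mapoly0092s0072 had risen in both genotypes, from 0, 0 and 0.0538 to 8.3, 15.9 and 15.2 CPM in xlg1-2 and from 0.198, 0.207 and 0.0515 to 13.6, 10.9 and 10.9 CPM in gpb1-2. Counts in xlg1-2 were 1 at 0 h and 585 at 24 h, a ratio of 509 (exact 95% counting interval 91 to 20100), and in gpb1-2 the fitted rise was 6.38 (log2, SE 0.46). Mapoly0025s0077 fell in both, from 38.4, 27.1 and 38 to 0.357, 0.766 and 0.28 CPM in xlg1-2 and from 36.6, 33.2 and 43.1 to 0.621, 0 and 0.0986 CPM in gpb1-2. The other named losses at 24 h were those of Mapoly0085s0007 in xlg1-2 (log2 -6.10, SE 0.38) and of Mapoly0012s0068 in gpb1-2 (log2 -7.71, SE 0.73). Mapoly0085s0007 changed by -5.87 (SE 0.38) in gpb1-2, and Mapoly0012s0068 by -3.66 (SE 0.42) in xlg1-2. Mapoly0080s0040 rose in gpb1-2 from 0.988, 0.207 and 0.515 to 46.2, 57 and 57.3 CPM. The fitted rise was 6.52 (log2, SE 0.40) in gpb1-2 and 7.38 (SE 0.41) in xlg1-2.

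At 1 named rise a single library was far above the rest. Mapoly0343s0001 was at 109, 1.44 and 16.1 CPM at 24 h in xlg1-2, against 0.0943, 0 and 0.376 CPM at 0 h (log2 7.57, SE 1.42, adjusted p = 3.4e-04). In gpb1-2 replicate 1 was also the highest at 24 h, at 113 CPM against 39.6 and 40.5. Tak-1 and gpa1-2 stayed at or below 2.29 and 1.71 CPM in 9 libraries each. Without xlg1-2 24 h replicate 1 the rise in xlg1-2 was 5.43 (log2), and it was called in all 26 alternatives, with values from 5.14 to 9.38.

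Lists of salt-responsive loci were taken from Tak-1 libraries, which are not in the comparison (adjusted p under 0.05 and at least 2-fold against 0 h). Loci that rose in Tak-1 were more often lower than higher in xlg1-2 over all times, and loci that fell were more often higher. Of 532 tested loci that rose at 2 h, 61 (11.5%) were lower and 32 (6.02%) higher in xlg1-2, where the background was 4.77% lower and 4.65% higher. Of 394 that fell at 2 h, 18 (4.57%) were lower and 46 (11.7%) higher. The 944 that rose by 24 h held 89 lower (9.43%) and 54 higher (5.72%), and the 1101 that fell by 24 h held 51 lower (4.63%) and 110 higher (9.99%). List medians were small, -0.09, 0.11, -0.02 and 0.08 on the log2 scale in that order, against 0 for all tested loci. In the fit that left out the 3 libraries of xlg1-2 replicate 1, the background was 6.36% lower and 5.15% higher. The 2 h rise list then held 15.8% lower and 9.11% higher, the 2 h fall list 6.82% and 13.4%, the 24 h rise list 12.3% and 8.4%, and the 24 h fall list 6.88% and 10%.

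At 24 h itself the loci that rise in Tak-1 had the opposite balance. Of the 944, 53 had a called higher level in xlg1-2 at 24 h and 1 a lower one, 5.61% and 0.106% of the list, while 1.38% and 0.447% of all tested loci were called in those directions. Without the 3 libraries of xlg1-2 replicate 1 the list held 10.7% higher and 3.57% lower, against 2.73% and 1.72% of all tested. Rises against 0 h were called for 850 of the 944 in xlg1-2 (90%, against 25.3% of all tested) and for 706 in gpb1-2 (74.8%, against 23.3%), where 12 fell, and the median responses were 1.41 and 1.09 on the log2 scale. At 2 h the 532 loci had median responses of 1.70 in xlg1-2 and 1.51 in gpb1-2, with 444 and 417 called rises (83.5% and 78.4%, against 16.5% and 15.2% of all tested). Of the 532, 9 were called higher and 7 lower in xlg1-2 at 2 h, against 88 and 54 of all 10068 tested. Without the 3 libraries of xlg1-2 replicate 1 it was 24 and 113 of 538, against 223 and 432 of all 10177 tested. In that setting the calls over all tested loci also turned to mostly lower, so the turn was not particular to this list. Median falls were -1.27 and -1.30 at 2 h and -1.28 and -1.30 at 24 h. At 0 h the median difference of the 2 h rise list was -0.21. The interaction was called for 2 of the 944 loci (0.212%, against 0.0298% of all tested), and for 84 of 952 (8.82%, against 1.49%) without the 3 libraries. The lists themselves were not tested.

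Male-linked loci, which carry a Y in the identifier, numbered 87 in the table, and the 25 of them that were tested had a median difference of -0.07 (log2). One of the 25 was called over all times (4%), against 9.42% of all tested loci. With the replicate block 3 of 25 were called (12%, against 16.9%), and without the 3 libraries of xlg1-2 replicate 1 it was 3 of 26 (11.5%, against 11.5%). The locus called with all libraries was named after its values were seen. MapolyY_B0006 ran from 4.15 to 11.7 CPM in the 9 xlg1-2 libraries (median 6.92) and from 1.73 to 3.46 in the 9 of gpb1-2 (median 2.93). The ranges did not overlap, and the difference was 1.5 (log2, SE 0.15, adjusted p = 2.1e-05). Tak-1 ran from 0.165 to 4.19 CPM and gpa1-2 from 0.203 to 3.73, so the xlg1-2 libraries lay mostly above all other libraries of the table. By replicate number the difference was 1.14, 1.63 and 1.48.

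Called loci also lay side by side. By scaffold and locus number, 5 runs of 3 or more neighbouring tested loci were higher in xlg1-2 (33 loci, 7.05% of those called higher). Another 5 runs were lower (15 loci, 3.12% of those called lower). With the replicate block there were 14 higher (62 loci) and 14 lower (44 loci), and without the 3 libraries of xlg1-2 replicate 1 there were 7 (40 loci) and 13 (43 loci). The longest, chosen after its values were seen, held 12 loci on scaffold 27, numbers 161 to 172, with differences of 1.23 to 2.96 on the log2 scale. The next held 8 loci on scaffold 12, numbers 58 to 71, with differences of 0.93 to 3.00, and it contains Mapoly0012s0062 and Mapoly0012s0068. All 12 and all 8 were called in those settings too. Loci of a run may be copies that share reads, which the files do not show, so their levels are given as sums.

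The summed level of the 12 loci at 0 h was 3160, 6610 and 3870 CPM in xlg1-2 and 1790, 2340 and 1960 in gpb1-2. At 24 h it was 975, 2460 and 1510 CPM in xlg1-2 and 267, 400 and 319 in gpb1-2. The genotypes did not overlap at those times, but at 2 h the lowest xlg1-2 library, replicate 1 at 1210 CPM, was below the highest of gpb1-2, at 1420 CPM. Tak-1 had 1780 ± 55 CPM (SD, n = 3) at 24 h and gpa1-2 had 3090 ± 269. The 8 loci on scaffold 12 summed to 1250 ± 180 CPM at 0 h and 279 ± 34.9 at 24 h in gpb1-2, and to 2240 ± 264 and 907 ± 262 in xlg1-2 (SD, n = 3). By replicate number the median difference of the run on scaffold 27 was 1.33, 2.29 and 1.80, and that of the run on scaffold 12 was 1.29, 2.00 and 1.69.

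**Figure D5:**
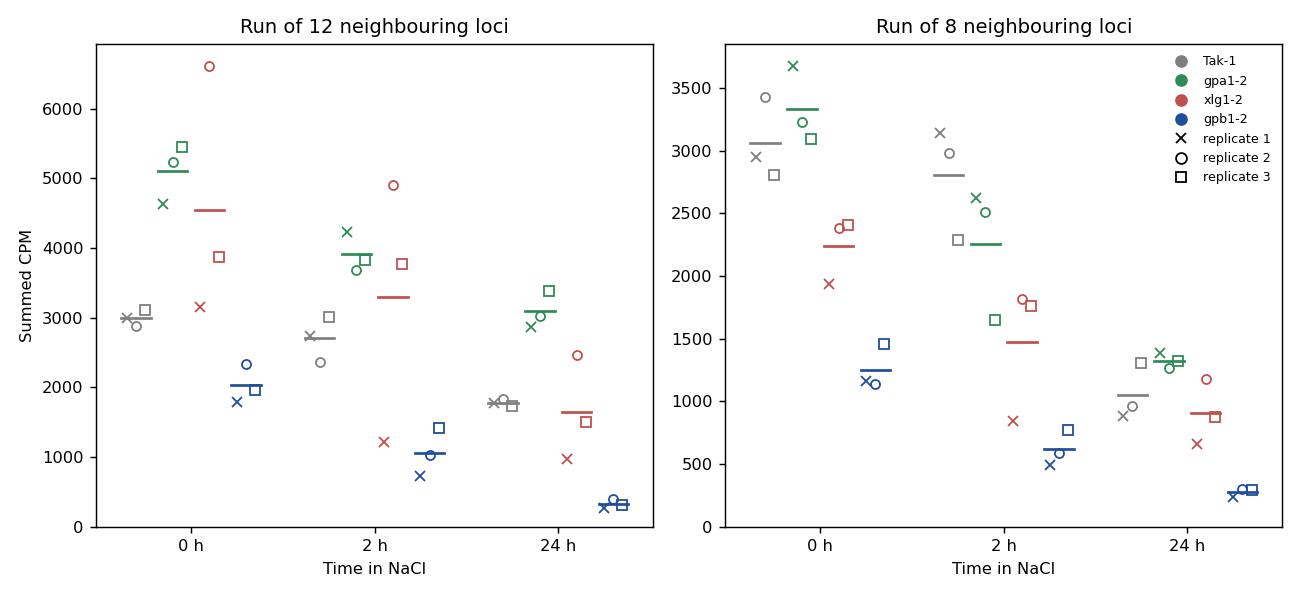
Summed CPM (y axis) of the 12 neighbouring loci on scaffold 27 and the 8 on scaffold 12 in each library by time in NaCl (x axis), coloured by genotype, with bars for group means of 3 libraries. The gpb1-2 group has the lowest mean at each time in both runs, at 329 and 279 CPM by 24 h.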

How the data were processed

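The authors deposited read counts per locus, with STAR named in the submitters' processing notes. For the Marchantia genome build and annotation, the sources used here give none. Counts of the 3012 identifiers with 2 lines each were added up, which turned 19755 lines into 16743 loci. Libraries were grouped by label. Low loci were removed by filterByExpr at a count of 10 and a total of 15, and libraries were scaled by TMM and tested with edgeR 4.0.16 in R 4.3.3 by quasi-likelihood F-tests, with Benjamini-Hochberg adjustment over 10068 loci and a threshold of 0.05. The genotype effect used an additive model of time and genotype, and the other comparisons used 1 mean per genotype and time. The interaction tested 2 h and 24 h together, and its SE is that of the 24 h term alone. DESeq2 1.42.0 was an alternative. The procedure was tested on simulated data. Deviations from group means correlated between genotypes at 0.15 to 0.48 in 9 of 9 pairs with the same replicate number, and at -0.42 to 0.15 in 18 other pairs, so the numbers pair the libraries. No 2 libraries were copies. Named loci are the 2 largest called differences in each direction with at least 10 CPM in the higher group and no overlap at any time tested; for the interaction, the 2 smallest p-values in each direction. The comparison, lists and rules were chosen with earlier results of these data known.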

Additional observations from a re-analysis of the deposited data

Results flagged for a closer look

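At 3 loci the test of the difference between the genotypes' responses passed the threshold, each with its larger difference at 24 h. The log2 difference of responses, xlg1-2 minus gpb1-2, was 1.65 at Mapoly0026s0053, 2.43 at Mapoly0095s0043 and 2.33 at Mapoly0033s0062. At Mapoly0026s0053 gpb1-2 fell by 1.57 (log2, SE 0.15) while the change in xlg1-2 was 0.08 (SE 0.14). At Mapoly0095s0043 the change at 24 h was 3.11 (SE 0.27) in xlg1-2 and 0.68 (SE 0.28) in gpb1-2. At Mapoly0033s0062 it was 1.96 (SE 0.32) and -0.37 (SE 0.32).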

How the results depend on the processing

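Counts of calls in the salt responses and in the genotype effect over all times stayed within 1.5 times of the reported ones, except over all times with the replicate block (1698) and without 1 library (628 to 1107). Counts at single times moved more. At 0 h there were 133 calls with DESeq2, 20 with DESeq2 size factors within edgeR, 112 with the replicate block, 107 with all 36 libraries and 1 to 159 without 1 library. At 2 h there were 373 with DESeq2, 593 with the block and 14 to 574 without 1 library. At 24 h there were 306 with DESeq2, 357 with the block and 87 to 286 without 1 library. The interaction gave 89 with DESeq2, 8 with no low-count filter, 18 with the block, 22 with all 36 libraries and 0 to 81 without 1 library. The next alternatives were chosen after seeing the data. Leaving out the 3 xlg1-2 replicate 1 libraries gave 252, 655 and 453 calls at 0, 2 and 24 h and 152 for the interaction. Leaving out replicate 1 of both genotypes gave 248, 511, 484 and 126. Both choices remove the xlg1-2 libraries nearest to gpb1-2 on the third component, which can by itself raise these counts. With no minimum fold the Tak-1 lists held 184, 157, 258 and 313 loci called between genotypes (2 h rise, 2 h fall, 24 h rise, 24 h fall), and with the block the 24 h fall list held 268. The replicate block ended none of the calls of named loci. For the named loci none of the alternatives run reversed a direction, and 844 values kept their call and 97 lost it. The cause of the moves and losses was not tested. Lists from the Tak-1 libraries of the WRKY table were not run, because its identifiers are of another kind. Totals of 9.5 to 11.3 M counts in replicates 1 and 2 limit the precision of loci with few counts.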

Other observations

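Neighbouring loci were called together more often between the genotypes than calls were overall. The next tested locus on the same scaffold was also called in the same direction for 58 of 444 loci higher in xlg1-2 (13.1%) and for 58 of 444 lower (13.1%), while 4.65% and 4.77% of tested loci were called in those directions. Without the 3 libraries of xlg1-2 replicate 1 the shares were 14.1% and 16.9%, against 5.15% and 6.36%. For the 24 h response of gpb1-2 the shares were 28.8% of rises and 31.1% of falls, against 23.3% and 25.3%. For that of xlg1-2 they were 30.3% and 30.2%, against 25.3% and 25.3%. A run on scaffold 16, numbers 175 to 180, held 5 loci with a highest mean of 536 CPM in xlg1-2, 204 in gpb1-2, 182 in Tak-1 and 199 in gpa1-2. These values were looked at after the calls were known and were not tested.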
